A study of Rattus norvegicus with 12 samples.

Results

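The genes described here are 32 genes of fatty acid oxidation and ketone body metabolism in the small intestine of Belgrade rats, chosen by name as a pathway list. Of the 32 genes, 31 had a probe set annotated to that gene alone, and Acaa1a, a peroxisomal thiolase, had none and is not analysed here. The 31 genes had 47 such probe sets, of which 42 probe sets of 30 genes averaged at least 100 in scaled signal over the 12 arrays and were tested, among 17694 probe sets and 10067 genes in all. The gene lost to this filter was Ppara, a fatty acid receptor and transcription factor, whose only probe set had a mean signal of 91.8. The dimmest probe set that passed, 1 of 3 for the coactivator Ppargc1a, had a mean of 138. The other 4 probe sets below the filter were second or further ones of Acsl1, Eci1, Hadh and Hadha.

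Belgrade rats have a recessive defect in DMT1, a transporter of ferrous iron and other metals encoded by Slc11a2, and homozygotes are known to be anaemic. Mucosal scrapes were taken from the jejunum and the duodenum of homozygotes (b/b) and of heterozygotes (+/b), which carry 1 mutated allele, so that no group here is wild type. For each genotype 3 groups of rats were used, and a group gave 1 array per segment. This makes b/b duodenum, +/b duodenum, b/b jejunum and +/b jejunum, with 3 arrays each. Each array therefore holds RNA of a group of rats. The sources used here do not give the number of rats in a group, their age, sex or diet, and the 3 titles of the heterozygous duodenum write the genotype as +b. The p-values measure the spread between these groups of rats.

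Mitochondrial fatty acid oxidation begins when acyl-CoA synthetases activate a fatty acid and the carnitine shuttle carries it across the mitochondrial membranes. A repeating cycle of dehydrogenation, hydration, dehydrogenation and thiolysis then shortens the chain, auxiliary isomerases and reductases prepare unsaturated chains for the cycle, and electron transfer flavoprotein passes electrons to the respiratory chain. Acetyl-CoA that is not burnt can become ketone bodies. Enterocytes meet dietary fat first and mostly re-esterify it for export in chylomicrons, and the nuclear receptor PPAR alpha is known to drive oxidation genes there during fasting or fat feeding.

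PPAR alpha with its partner RXR binds a direct repeat of AGGTCA spaced by 1 base. The windows below, from 250 bases before to 50 bases after the start site used in the RefSeq table (build GRCr8), were read for 28 of the 32 members. They are shown because Eci1 had the smallest p-value of the list between genotypes, because Acadvl held the closest match to the repeat among the 28 windows, and because Hadha shares its window with Hadhb. All 3 are printed 5′ to 3′ on the strand of the gene. Capitals mark a single AGGTCA half-site on the opposite strand in Eci1, 94 to 89 bases before the start, and the closest match to the repeat in Acadvl and Hadha.
Eci1, chr10:13961000-13961299, plus strand: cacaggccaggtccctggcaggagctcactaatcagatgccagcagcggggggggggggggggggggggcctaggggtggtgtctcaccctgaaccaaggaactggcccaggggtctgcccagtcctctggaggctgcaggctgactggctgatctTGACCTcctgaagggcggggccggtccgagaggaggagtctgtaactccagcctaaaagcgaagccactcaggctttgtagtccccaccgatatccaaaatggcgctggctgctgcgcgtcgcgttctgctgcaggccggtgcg
Acadvl, chr10:55236656-55236955, minus strand: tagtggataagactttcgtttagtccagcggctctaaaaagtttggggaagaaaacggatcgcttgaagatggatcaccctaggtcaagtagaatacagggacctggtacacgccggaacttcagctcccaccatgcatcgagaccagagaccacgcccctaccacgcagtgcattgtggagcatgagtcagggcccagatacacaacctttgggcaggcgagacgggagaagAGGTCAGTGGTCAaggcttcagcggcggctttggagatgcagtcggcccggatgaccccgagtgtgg
Hadha, chr6:31907551-31907850, plus strand: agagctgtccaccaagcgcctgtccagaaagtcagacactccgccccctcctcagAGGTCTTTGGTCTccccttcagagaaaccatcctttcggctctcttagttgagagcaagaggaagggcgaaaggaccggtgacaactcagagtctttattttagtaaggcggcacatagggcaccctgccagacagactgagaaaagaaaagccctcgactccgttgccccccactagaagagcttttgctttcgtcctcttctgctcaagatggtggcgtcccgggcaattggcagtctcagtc

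Counted from 1 at the first base of AGGTCANAGGTCA, the Acadvl match differed by A8T, and the Hadha match by A6T, A8T and A13T. Hadha and Hadhb encode the 2 subunits of the mitochondrial trifunctional protein and are transcribed in opposite directions, and their windows overlap by 200 bases. Searched on both strands, the half-site AGGTCA occurred in 5 of the 28 windows (17.9%), those of Acadvl, Echs1, Eci1, Eci2 and Hadhb, against 16.2% of 33469 windows in the table. The exact repeat, which contains the half-site, occurred in 0 of the 28 windows and 0.0538% of all. With at most 2 mismatches it was found in 5 of 28 (17.9%), those of Acadvl, Crat, Echs1, Etfa and Slc25a20, against 3.77% of all. These are counts of letters in 1 window per gene, not of bound sites.

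The arrays gave signal intensities, scaled here to a common trimmed mean of 500, and changes are differences of log2(signal + 16) with the standard error (SE) of a limma fit over the 12 arrays. Two-sided p-values were adjusted by the Benjamini-Hochberg method over the 17694 probe sets, with a threshold of 0.05. The 2 arrays of +/b duodenum replicates 2 and 3 had been deposited without scaling and were multiplied by 9.69 and 3.95, and among all arrays b/b duodenum replicate 1 had the lowest median Spearman correlation to the others (0.836). Summed exocrine pancreas markers, 14 of 16 measured, lay between 1157 and 1957 in 10 arrays. The exceptions were b/b duodenum replicate 3 with 8637 and +/b duodenum replicate 2 with 184106. Of 12 enterocyte markers, called brush border markers below, 9 were measured, with sums of 142078 to 441101, none at 0, and overlapping ranges in the 4 groups. Fabp2, Apoa4, Apob and Mttp among them are not brush border proteins. In such scrapes, fewer cells of a type and less RNA per cell cannot be told apart.

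Most oxidation genes were measured well above the filter: 26 of the 30 genes had a mean signal of at least 1000 on their brightest probe set, which stands for the gene below. The pooled SD within groups had a median of 0.34 on the log2 scale over the 30 genes and 0.34 over all genes tested. The plot of signals by group shows each array of the genes with the smallest p-values.

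**Figure D1:**
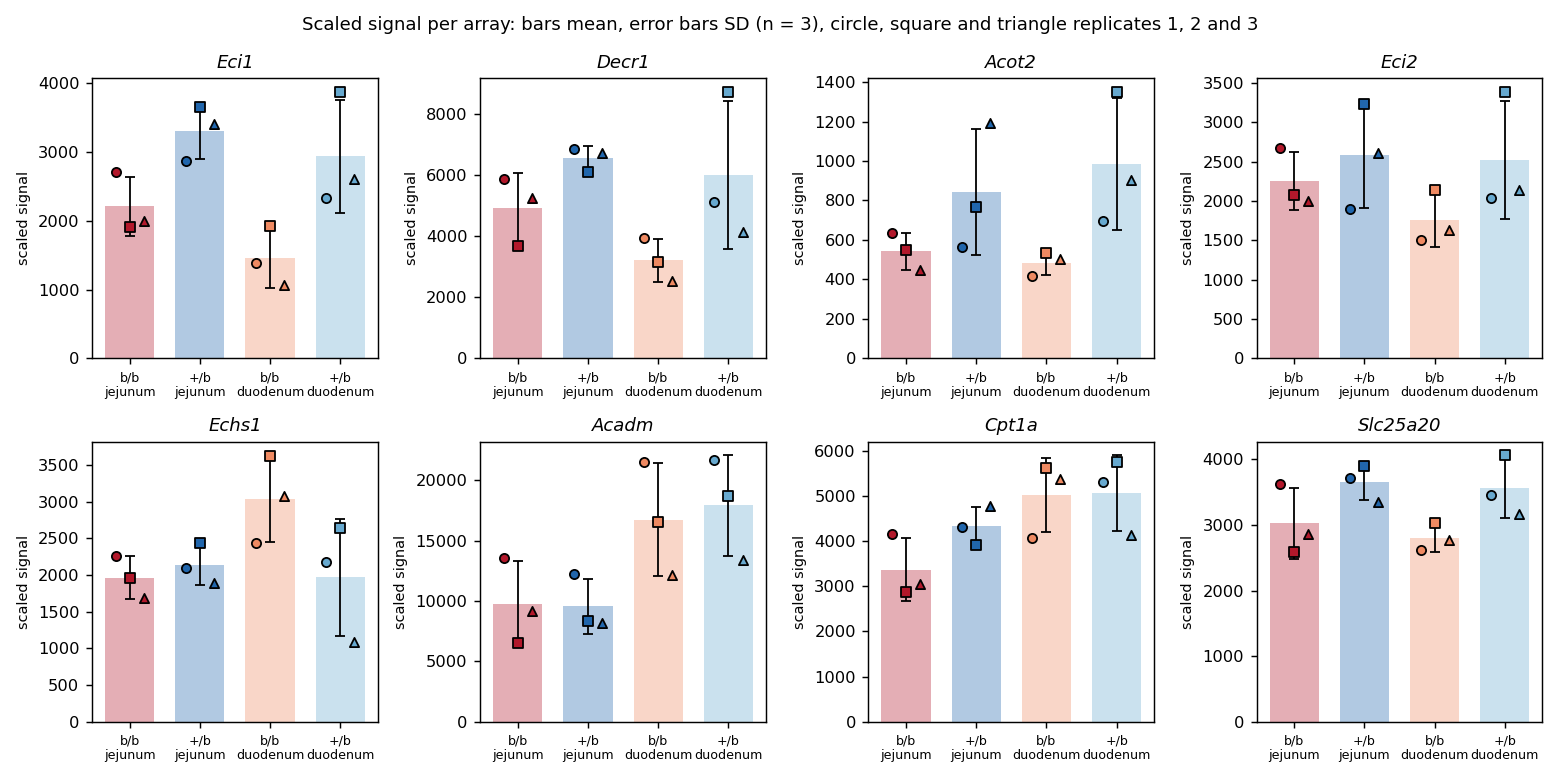
Scaled signal (linear axis from 0) of 8 members in b/b jejunum, +/b jejunum, b/b duodenum and +/b duodenum, with bars for the group mean, error bars for the SD (n = 3) and circle, square and triangle for replicates 1, 2 and 3. Eci1 and Decr1 lie lower in all b/b arrays than in any +/b array of the same segment, and the Acadm bars are lower in jejunum than in duodenum.

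The genotypes were compared first in the duodenum, the segment where most iron is absorbed. None of the 42 member probe sets passed the threshold (limma, lowest adjusted p = 0.554), where 0.0396% of all probe sets did, and 5 (11.9%) had an unadjusted p under 0.05, against 6.17% of all. The largest differences lay in enzymes of unsaturated fatty acids and in a thioesterase, whose signals were 1.80-fold (Decr1), 1.94-fold (Acot2) and 2.01-fold (Eci1) lower in b/b duodenum. Of the 30 genes, 21 had a change below 0 (70%, against 54.2% of all genes), with a median of -0.15 against -0.03 over all genes.

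The auxiliary enzymes Eci1, Eci2 and Decr1, which reshape double bonds so that unsaturated chains can enter the cycle, had a median change of -0.85. Eci1, an enoyl-CoA isomerase, had signals of 1381, 1930.5 and 1065 in b/b duodenum, against 2331, 3878 and 2613 in +/b duodenum. All 3 b/b arrays lay below all 3 +/b arrays. Its log2 change was -1.01 ± 0.25 SE (95% interval -1.54 to -0.48, limma adjusted p = 0.554).

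Decr1, the dienoyl-CoA reductase, had signals of 3921, 3156 and 2527 in b/b duodenum, against 5114, 8714 and 4139 in +/b duodenum. These groups did not overlap either, and the highest value of all 6 was that of +/b replicate 2. Its change was -0.85 ± 0.27 (limma adjusted p = 0.704). Eci2, a second isomerase, had 1501, 2139.8 and 1634 in b/b and 2042, 3391 and 2139 in +/b duodenum, with overlap, and a change of -0.49 ± 0.25 (limma adjusted p = 0.79).

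Among genes of acyl-CoA synthesis and hydrolysis, Acot2, a mitochondrial thioesterase that releases free fatty acids from acyl-CoA, stood lowest. Its signals were 415, 534 and 504 in b/b duodenum, against 697, 1351 and 906 in +/b duodenum, without overlap. The change was -0.95 ± 0.29 (95% interval -1.57 to -0.34, limma adjusted p = 0.696), and its other 2 probe sets had -0.90 and -0.97, the first also without overlap. Acot2 belongs to a family of closely related thioesterase genes, whose transcripts the probes may share. The long-chain synthetases had -0.16 ± 0.29 (Acsl1) and -0.15 ± 0.39 (Acsl5), while the dimmer Acsl5 probe set had 0.405 ± 0.257, the opposite sign.

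In the oxidation spiral, the 9 genes tested had a median of -0.15 and a range of -0.43 to 0.70. Echs1, the short-chain enoyl-CoA hydratase, was the highest of them, with 2431, 3615 and 3073 in b/b duodenum, against 2178, 2642 and 1088 in +/b duodenum. The groups overlapped, since +/b replicate 2 exceeded b/b replicate 1, while +/b replicate 3 lay far below every other array. Its change was 0.70 ± 0.28 (limma adjusted p = 0.789), and 0.32 without that array. Hadh, the short-chain hydroxyacyl-CoA dehydrogenase, had 12072, 11895 and 9020.0 in b/b duodenum, against 13653, 17143 and 13699 in +/b duodenum, without overlap (-0.43 ± 0.22). The trifunctional protein genes with the overlapping windows had -0.29 ± 0.24 (Hadha) and -0.19 ± 0.18 (Hadhb), and the acyl-CoA dehydrogenases of very long, long, medium and short chains had -0.15 ± 0.15 (Acadvl), -0.09 ± 0.21 (Acadl), -0.11 ± 0.30 (Acadm) and 0.37 ± 0.21 (Acads). Acaa2, a mitochondrial thiolase of the cycle, had 9732, 9338 and 7859 in b/b duodenum, against 10403, 13692 and 9724 in +/b duodenum. The change was -0.32 ± 0.21, with overlap, and its dimmer probe set had 0.15 ± 0.40.

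The 6 carnitine shuttle and transport genes had changes between -0.34 and 0.27. The liver form of carnitine palmitoyltransferase 1, Cpt1a, the enzyme of the entry step, had 4080.3, 5615 and 5387 in b/b duodenum, against 5314, 5758 and 4128 in +/b duodenum, and a change of -0.01 ± 0.21 (95% interval -0.46 to 0.43). The carnitine-acylcarnitine carrier Slc25a20 had 2612, 3033 and 2767 in b/b duodenum, against 3454, 4063 and 3165 in +/b duodenum, with no overlap between the groups and a change of -0.34 ± 0.18. The other 4 genes of this group had -0.21 ± 0.37 (Cpt1b), -0.16 ± 0.21 (Cpt2), 0.07 ± 0.25 (carnitine acetyltransferase Crat) and 0.27 ± 0.29 (the carnitine importer Slc22a5). The electron transfer genes had -0.26 ± 0.18 (Etfa), -0.08 ± 0.23 (Etfb) and -0.46 ± 0.27 (Etfdh), the ketone body genes -0.11 ± 0.27 (hydroxybutyrate dehydrogenase Bdh1) and 0.03 ± 0.26 (acetoacetyl-CoA thiolase Acat1), and the peroxisomal bifunctional enzyme Ehhadh 0.04 ± 0.32. On their brightest probe sets the regulators tested had changes above 0, with 0.15 ± 0.36 for Pdk4, a kinase that restrains pyruvate oxidation, and 0.11 ± 0.28 for the coactivator Ppargc1a. The mitochondrial carrier Ucp2, an uncoupling protein of the inner membrane, had 0.21 ± 0.30. The dimmer Pdk4 probe set had -0.25 ± 0.42, and Ppara, below the filter, -0.24 ± 0.60.

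In the duodenum 7 member probe sets (16.7%) were lower in every b/b array than in any +/b array and 0 were higher in this way, against 5.53% and 3.18% of all probe sets. The 7 were those of Eci1, Decr1, Hadh, Slc25a20, 2 of Acot2 and the dimmer one of Acsl1. The +/b array of replicate 2, the one with the pancreas signal, held the highest member values: its members deviated by a median of 0.43 from their mean over the 12 arrays, with 23 of 30 above it, against a median of 0.02 over all genes. Without it, the median member change in the duodenum was -0.07, and those of Eci1, Decr1, Acot2 and Eci2 were -0.79, -0.54, -0.70 and -0.26. Without b/b duodenum replicate 1 they were -0.99, -1.01, -0.85 and -0.39. Leaving out both arrays that lacked scaling left a single +/b duodenum array, taken to vary as the other groups do, and Eci1 had -0.71, Decr1 -0.70, Acot2 -0.52 and Eci2 -0.23.

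**Figure D2:**
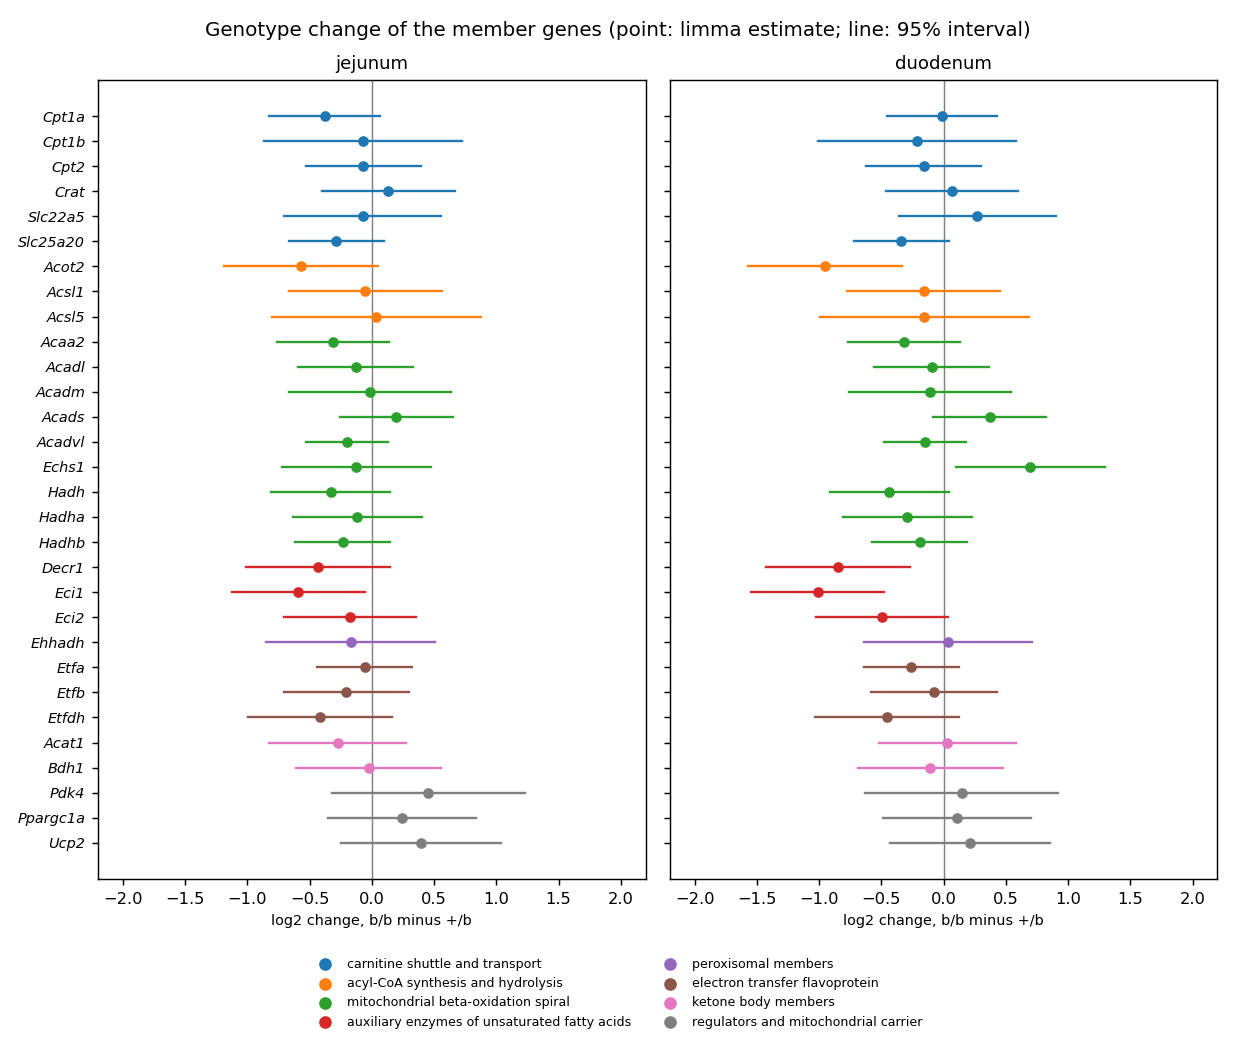
Log2 change of b/b against +/b in jejunum (left) and duodenum (right) for the 30 members (limma estimate as a point, 95% interval as a line), coloured by role. Eci1 and Decr1 lie left of 0 in both panels, and no member passed the adjusted threshold.

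In the jejunum the same comparison again gave 0 of 42 member probe sets past the threshold (limma, lowest adjusted p = 1.000), where 0.0339% of all probe sets passed. An unadjusted p under 0.05 was reached by 2 probe sets (4.76%, against 1.34% of all), 1 each of Eci1 and Acot2. The median change was -0.13 against -0.04 over all genes, and 24 of 30 genes were below 0 (80%, against 56.6% of all genes). The median was -0.26 without b/b jejunum replicate 1, the b/b jejunum array with the highest member values.

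Eci1 had 2706, 1918 and 2004 in b/b jejunum, against 2866, 3660.1 and 3409 in +/b jejunum. The groups did not overlap here either, and the change was -0.59 ± 0.25 (95% interval -1.12 to -0.06, limma adjusted p = 1.000). Decr1 had 5872, 3673 and 5230.4 in b/b jejunum, against 6839, 6096 and 6701 in +/b jejunum, also without overlap (-0.43 ± 0.27), although b/b replicate 1 came close to the lowest +/b array. Eci2 overlapped, with -0.18 ± 0.25. The second Eci1 probe set, below the filter, had 1.03 ± 0.92 in jejunum and 0.02 ± 0.92 in duodenum when no filter was applied.

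Acot2 had 633, 548 and 447 in b/b jejunum, against 565, 769 and 1192 in +/b jejunum on its brightest probe set, with overlap and a change of -0.57 ± 0.29. On the second Acot2 probe set the values were 331, 331 and 522 in b/b jejunum, against 464, 719 and 839 in +/b jejunum. There b/b replicate 3 exceeded the lowest +/b array, and the change was -0.74 ± 0.28 (limma adjusted p = 1.000). Cpt1a had 4166, 2880.1 and 3049 in b/b jejunum, against 4308, 3926 and 4774 in +/b jejunum, a change of -0.38 ± 0.21 with overlap, while its dimmer probe set had 0.04 ± 0.41. Slc25a20 had -0.28 ± 0.18.

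Outside these genes the spiral had a median of -0.13 over its 9 genes in the jejunum. Acadvl, the very long-chain dehydrogenase with the nearest match to the repeat in its window, varied least within groups of the 42 member probe sets (pooled SD 0.083 on the log2 scale). It had 3306, 3369 and 3559 in b/b jejunum, against 3876, 3772 and 4119 in +/b jejunum, with no overlap and a change of -0.20 ± 0.15. Etfdh, which hands electrons from the flavoprotein to ubiquinone, had 1809, 1879 and 1818 in b/b jejunum, against 2149, 2997 and 2296 in +/b jejunum, without overlap (-0.42 ± 0.27). Acads was the 1 member higher without overlap, with 1909.8, 1850.1 and 2104 in b/b jejunum, against 1754, 1805 and 1561 in +/b jejunum (0.20 ± 0.21). In all, 4 member probe sets were lower and 1 was higher without overlap (9.52% and 2.38%), against 4.54% and 3.35% of all probe sets.

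The brightest probe sets of the regulators and of Ucp2 again had changes above 0 in the jejunum, each with overlapping groups. They were 0.45 ± 0.36 for Pdk4, 0.24 ± 0.28 for Ppargc1a and 0.39 ± 0.30 for Ucp2, while 1 dimmer Ppargc1a probe set had -0.08 ± 0.40. Acaa2 had -0.31 ± 0.21 in the jejunum. The ketone body genes had -0.27 ± 0.26 (Acat1) and -0.02 ± 0.27 (Bdh1). Ppara, below the filter, had signals of 124, 87.9 and 83.3 in b/b jejunum and 80.9, 85.7 and 64.6 in +/b jejunum, and 163, 25.4 and 72.3 in b/b duodenum and 189, 31.6 and 94.0 in +/b duodenum. At these signals the groups overlapped in both segments.

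Changes in the 2 segments came from separate arrays but from the same groups of rats. In both segments 20 of 30 genes (66.7%) were below 0 in b/b, against 35.2% of all genes, and 5 were above 0 in both. The difference between the segments itself, the change in jejunum minus that in duodenum, gave 0 of 42 member probe sets past the threshold (limma, 0% of all probe sets) and 0 with an unadjusted p under 0.05, against 1.73% of all. Echs1 had the largest such difference, -0.82 ± 0.40 (95% interval -1.67 to 0.03, limma adjusted p = 1.000). For Eci1 it was 0.42 ± 0.35, for Decr1 0.41 ± 0.38, for Acot2 0.39 ± 0.41 and for Cpt1a -0.37 ± 0.29, and each 95% interval included 0. With the group of rats as a block, 0 member probe sets and 0.0113% of all passed.

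With 3 arrays per group, the 95% intervals of the genotype change lay within 1 log2 unit of 0 for 23 of the 30 genes in duodenum and 25 in jejunum. For the others, a change of that size was within the interval. Sums of marker lists were compared between the genotypes too. Crypt markers, 6 of 9 measured and none at 0, summed to 2052 to 3133 in b/b duodenum, against 3205 to 6168 in +/b duodenum, and to 3931 to 5075 in b/b jejunum, against 5403 to 8509 in +/b jejunum. Blood markers, 7 of 10 measured and none at 0, summed to 21231 to 24025 in b/b duodenum, against 4991 to 7648 in +/b duodenum, and to 14724 to 20657 in b/b jejunum, against 5526 to 8094 in +/b jejunum. Neither pair of ranges overlapped in either segment, and their part in the member values was not tested. Hbb (mean signal 7662) and Tfrc (5156) were the brightest blood markers, ahead of Alas2 (303). Gene by gene, 4 of 4 blood markers tested were above 0 in duodenum, with 1 called (25%). In jejunum 3 of 4 were above 0, with 2 called (50%), against 0.0298% of all genes in each segment. Slc4a1 went the other way there, with a mean of 90.5 in b/b jejunum, against 131 in +/b jejunum. Cell cycle genes, 19 of 20 measured, summed to 8460 to 12357 in b/b duodenum, against 8281 to 13742 in +/b duodenum, and to 9415 to 14944 in b/b jejunum, against 12461 to 19369 in +/b jejunum. These ranges overlapped, but gene by gene 16 of 18 tested were below 0 in duodenum (median -0.43) and 18 of 18 in jejunum (median -0.32), with 0 called. In duodenum 5 of 5 hepatocyte markers (median -0.70), 14 of 14 exocrine pancreas markers (-1.16), 7 of 8 smooth muscle markers (-0.32) and 8 of 9 brush border markers (-0.19) were below 0 as well, with 0 called. The +/b side of the pancreas list held replicate 2 with its sum of 184106. In jejunum the counts below 0 were 3 of 5, 7 of 14, 5 of 8 and 3 of 9 in the same order of lists. Immune markers had 2 of 7 below 0 in duodenum and 4 of 7 in jejunum, and the 2 adipocyte markers tested 0 and 2. The part of these lists in the member values was not tested. A list of 18 subunits of the mitochondrial respiratory chain had median changes of -0.04 in duodenum and -0.01 in jejunum.

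**Figure D3:**
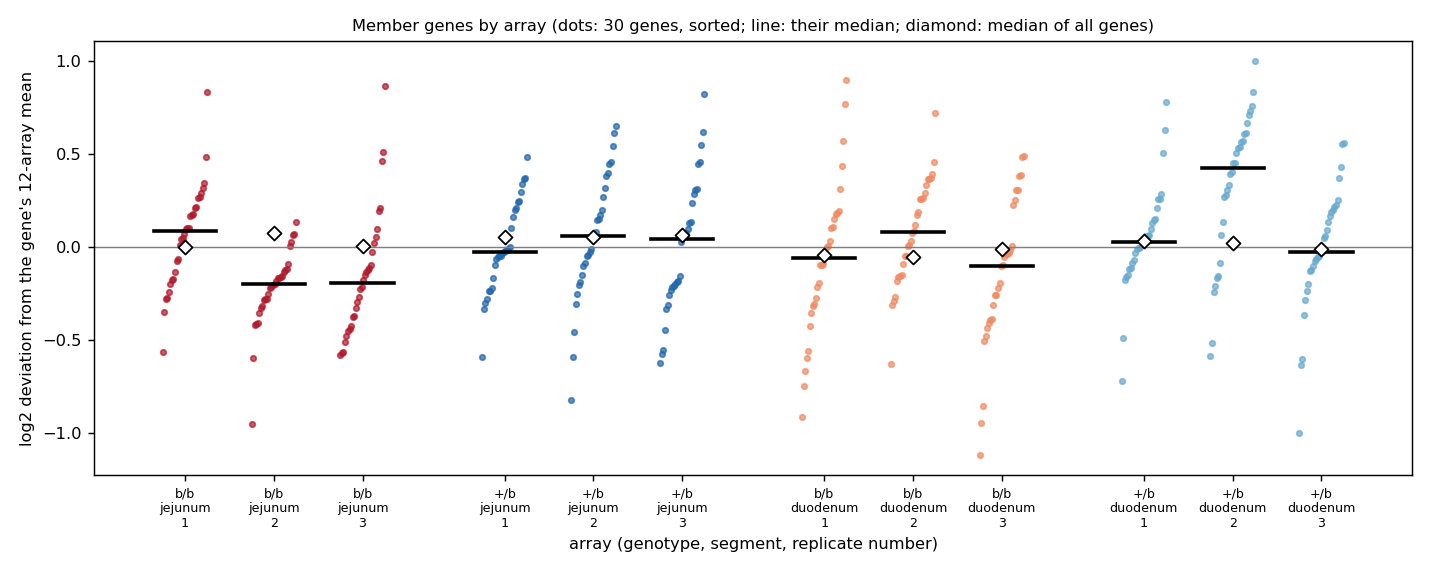
Deviation of each of the 30 members (dots, log2) from its mean over the 12 arrays, for each array, with the median of the members as a line and that of all genes tested as a diamond. The highest member median, 0.43, belongs to +/b duodenum replicate 2, and b/b jejunum replicates 2 and 3 have the lowest, -0.20 and -0.19.

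Jejunum was then compared with duodenum within each genotype, where both segments came from the same groups of rats. In b/b rats 0 of 42 member probe sets passed the threshold (limma, lowest adjusted p = 0.323), where 0.763% of all probe sets did, and 5 (11.9%) had an unadjusted p under 0.05, against 9.77% of all. The median member change was -0.07 against 0.06 over all genes. In +/b rats 0 of 42 passed (limma, lowest adjusted p = 0.714), where 0.0565% of all did, and 2 (4.76%) had an unadjusted p under 0.05, against 5.36% of all. The median was -0.09 against 0.06 over all genes.

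Acadm, the medium-chain acyl-CoA dehydrogenase, had the segment estimate farthest from 0 among the members in both genotypes, on their brightest probe sets. Its signals were 13518, 6514 and 9197 in b/b jejunum, against 21493, 16519 and 12129 in b/b duodenum. Replicate 1 of the jejunum exceeded replicate 3 of the duodenum, but within each of the 3 groups of rats the jejunum was the lower one. In +/b rats the signals were 12189, 8346 and 8173 in jejunum, against 21634, 18675 and 13417 in duodenum, with no overlap. The changes were -0.80 ± 0.30 in b/b rats (95% interval -1.45 to -0.15, limma adjusted p = 0.361) and -0.90 ± 0.30 in +/b rats (95% interval -1.55 to -0.25, limma adjusted p = 0.714). With the group of rats as a block, the fit that takes in the pairing of the segments, Acadm passed in b/b rats (-0.80 ± 0.17, limma adjusted p = 0.0330) and missed the threshold in +/b rats (limma adjusted p = 0.0504). It was the 1 member probe set of 42 that passed there (2.38%), where 2.44% of all probe sets passed in b/b rats, and 0.486% in +/b rats. Replicate 1 had the highest Acadm signal in all 4 groups, so the same number was highest in different rats too.

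Cpt1a had 4166, 2880.1 and 3049 in b/b jejunum, against 4080.3, 5615 and 5387 in b/b duodenum. Duodenum replicate 1 was the lowest duodenum array and overlapped with the jejunum. The change was -0.58 ± 0.21 (95% interval -1.03 to -0.14, limma adjusted p = 0.323), and it was -0.21 ± 0.21 in +/b rats. With arrays weighted by their quality, Cpt1a was called in b/b rats (-0.78, limma adjusted p = 0.0193), where 3.63% of all probe sets were. The dimmer Cpt1a probe set had 0.28 ± 0.41, the opposite sign.

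The auxiliary enzymes lay the other way in b/b rats. Eci1 had 2706, 1918 and 2004 in b/b jejunum, against 1381, 1930.5 and 1065 in b/b duodenum, a change of 0.62 ± 0.25 with overlap, and Decr1 had 0.61 ± 0.27. In +/b rats the changes were 0.20 ± 0.25 for Eci1 and 0.20 ± 0.27 for Decr1. Echs1 had 2255, 1958 and 1682 in b/b jejunum, against 2431, 3615 and 3073 in b/b duodenum, without overlap (-0.62 ± 0.28), and 0.20 ± 0.28 in +/b rats. The lowest limma adjusted p among these was 0.405.

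**Figure D4:**
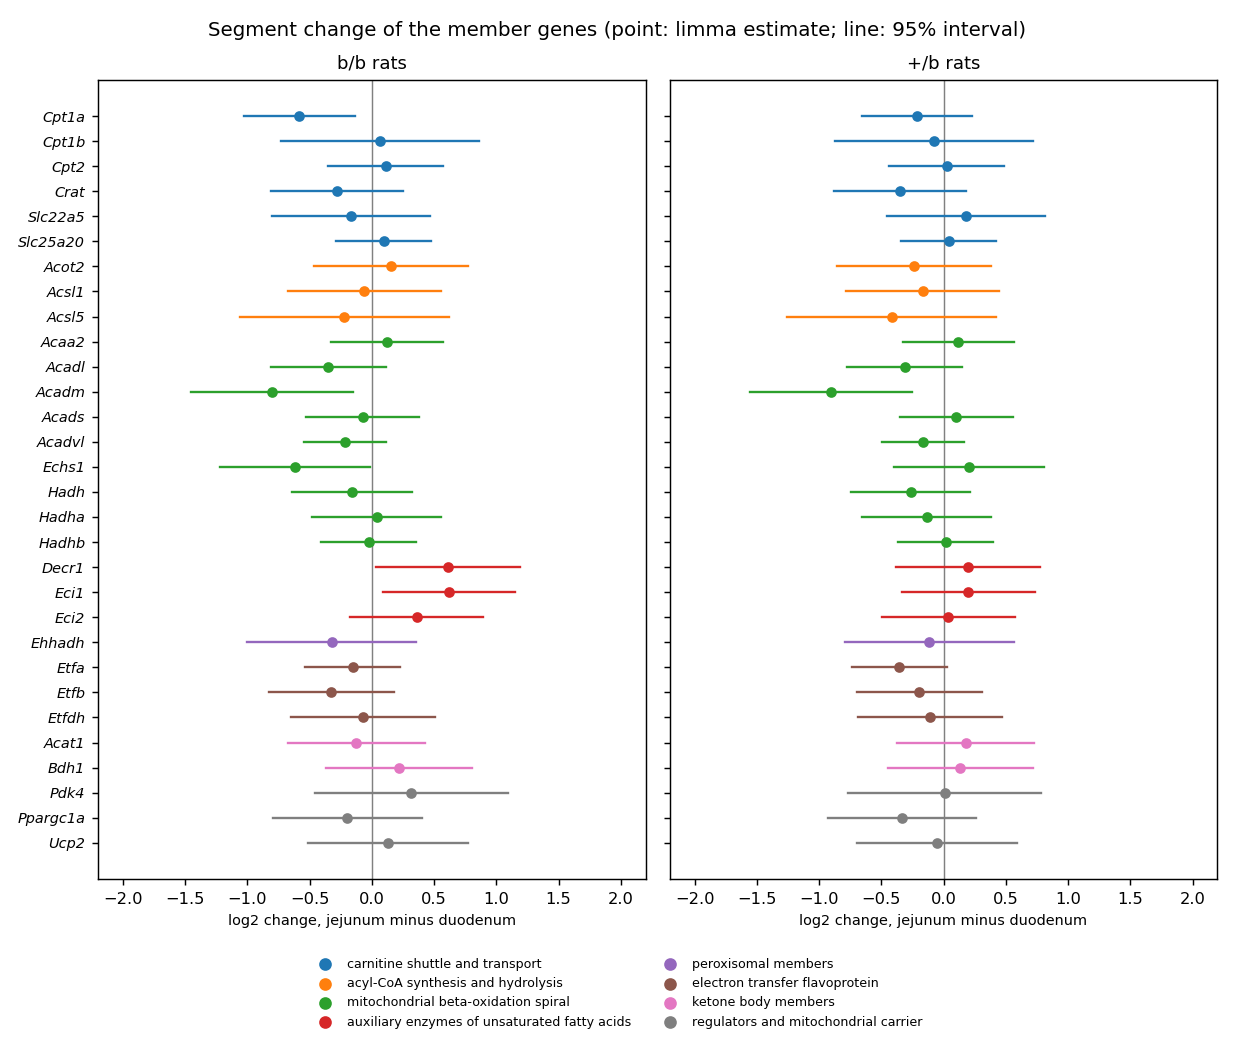
Log2 change of jejunum against duodenum in b/b and in +/b rats for the 30 members (limma estimate as a point, 95% interval as a line), coloured by role. Acadm has the lowest estimate in both panels, and its 95% interval lies below 0 in both.

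Without overlap between segments, 3 member probe sets were lower in b/b jejunum than in b/b duodenum (7.14%, against 5.30% of all) and 0 were higher (against 9.53%): Echs1, Acadvl and Etfb, the beta subunit of electron transfer flavoprotein. Etfb had 9933, 10006 and 8027 in b/b jejunum, against 12497, 12326 and 10208 in b/b duodenum (-0.33 ± 0.23). In +/b rats 5 were lower (11.9%, against 4.71% of all) and 0 higher (against 6.10%): Acadm, Hadh, Etfa and 2 probe sets of Ppargc1a. Etfa, the alpha subunit, had 7707, 7656 and 6700.5 in +/b jejunum, against 8627, 10758 and 8959 in +/b duodenum (-0.36 ± 0.18). Hadh had -0.26 ± 0.22, Acadl -0.31 ± 0.21 and Crat -0.35 ± 0.25. The dimmest Ppargc1a probe set had 67.2, 116 and 57.3 in +/b jejunum, against 128, 172 and 213 in +/b duodenum, a change of -0.98 ± 0.43 (limma adjusted p = 0.903), while the brightest had -0.33 ± 0.28 and the third -0.06 ± 0.40. Crypt markers summed higher in jejunum than in duodenum in b/b rats (3931 to 5075, against 2052 to 3133), and the ranges overlapped in +/b rats (5403 to 8509, against 3205 to 6168). Of 18 cell cycle genes tested, 17 were above 0 in b/b rats (median 0.76) and 18 in +/b rats (median 0.59), and of 9 brush border markers 7 were below 0 in b/b rats (median -0.12) and 9 in +/b rats (median -0.37). The respiratory chain subunits had a median of -0.20 in b/b rats (16 of 18 below 0) and -0.25 in +/b rats (15 of 18). Without overlap, 8.33% of their probe sets were lower in b/b jejunum and 20.8% in +/b jejunum. Exocrine pancreas markers were below 0 in 13 of 14 and 14 of 14 in b/b and +/b rats. Smooth muscle markers were so in 1 of 8 and 4 of 8, hepatocyte markers in 3 of 5 and 4 of 5, and immune markers in 2 of 7 each. The part of these lists in the segment values was not tested.

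Of 80 further genes of fatty acid handling, 63 were tested, with 0 called between genotypes in either segment, where 0.0298% of all genes were called in each. In b/b rats 2 were called between segments (3.17%, against 0.884% of all genes). In +/b rats 0 were (against 0.0695% of all genes), and 0 for the difference between segments (against 0%). Angptl4, a secreted inhibitor of lipoprotein lipase and a known PPAR target, had 1771, 1232 and 1394 in b/b jejunum, against 245, 517 and 493 in b/b duodenum. It was higher in all 3 jejunum arrays and rose by 1.82 ± 0.29 (limma adjusted p = 0.00908). In +/b rats it had 1283, 1203 and 1565 in jejunum, against 618, 962 and 1158 in duodenum without overlap (0.59 ± 0.29, limma adjusted p = 0.928). Between genotypes Angptl4 had -1.12 ± 0.29 in duodenum (limma adjusted p = 0.657), without overlap, and 0.11 ± 0.29 in jejunum. The difference between the segment effects of the genotypes was 1.23 ± 0.41 (limma adjusted p = 1.000).

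Pparg, a nuclear receptor of lipid storage, had 577, 397 and 451 in b/b jejunum, against 775, 1235 and 1225 in b/b duodenum, and fell by 1.14 ± 0.24 (limma adjusted p = 0.0395). That call was lost in 9 of the 12 fits that left out 1 array (limma adjusted p up to 0.243): those without +/b duodenum replicate 1 or 3, +/b jejunum replicate 1 or 2, b/b duodenum replicate 2 or 3, or any of the b/b jejunum arrays. In +/b rats its change was -0.91 ± 0.24 (limma adjusted p = 0.412). Between genotypes Pparg had 0.53 ± 0.24 in duodenum (limma adjusted p = 0.789) and 0.30 ± 0.24 in jejunum. Plin2, which coats lipid droplets, had -0.36 ± 0.25 between genotypes in duodenum and 0.05 ± 0.25 in jejunum. Its dimmer probe set had -0.39 ± 0.33 in duodenum and -0.51 ± 0.33 in jejunum. Fabp1, a fatty acid carrier of the cytosol, had -0.33 ± 0.55 in duodenum and -0.01 ± 0.55 in jejunum. Adipocyte markers, 6 of 7 measured and none at 0, summed to 337 to 923 in b/b jejunum, against 557 to 1783 in b/b duodenum, ranges that overlapped, and their part in the Pparg value was not tested.

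Replicate numbers were compared across the groups. In 8 of 42 member probe sets (19.0%, against 16.8% of all) the same number was highest in all 4 groups, and in 9 (21.4%, against 15.7%) the same number was lowest. Acsl5, the long-chain synthetase of enterocytes, had its highest signal in replicate 1 and its lowest in replicate 3 of every group on its brightest probe set, with 45188, 21822 and 17096 in b/b duodenum, 37545, 29397 and 21088 in +/b duodenum, 33949, 19285 and 16192 in b/b jejunum and 30719, 19644 and 16260.5 in +/b jejunum. Its dimmer probe set was highest in replicate 3 of every group, with 1424, 1729 and 2452 in b/b duodenum, 1489, 962 and 1801 in +/b duodenum, 1428, 1331 and 1813 in b/b jejunum and 1277, 1081 and 1507 in +/b jejunum. Replicate 3 of each group was thus lowest on one Acsl5 probe set and highest on the other. Summed brush border markers also fell from replicate 1 to 3 in every group. They were 351537, 210025 and 142078 in b/b jejunum and 293034, 225143 and 147152 in +/b jejunum. In duodenum they were 441101, 201943 and 147083 in b/b rats and 334156, 304966 and 199078 in +/b rats. Summed immune markers fell in the same order in every group, and no other marker list did. The part of these lists in the Acsl5 values was not tested. The sources used here do not say what a number stands for across genotypes.

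**Figure D5:**
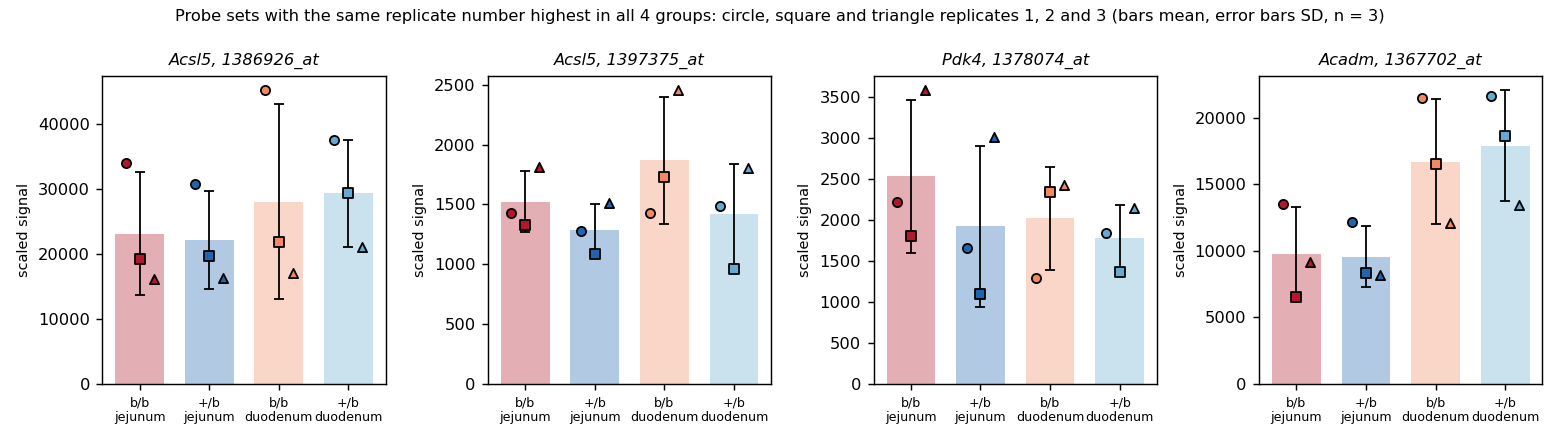
Scaled signal (linear axis from 0) of 4 member probe sets, 2 of Acsl5 and 1 each of Pdk4 and Acadm, in the 4 groups, with bars for the mean, error bars for the SD (n = 3) and circle, square and triangle for replicates 1, 2 and 3. On the brightest Acsl5 probe set replicate 1 is highest in every group, and on the dimmer one replicate 3 is.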

How the data were processed

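Mucosal RNA of 12 samples was hybridised to Affymetrix arrays. The authors deposited linear signal intensities, 1 per probe set, and for 10 of the 12 arrays MAS5 is named, per the submitters' processing notes. The sources used here do not give its version or settings. Each array was scaled to a 2% trimmed mean of 500. Of 31099 probe sets, 57 controls and those with a mean signal under 100 were left out, and genes were named through the platform annotation where a probe set had 1 gene. A model of 4 group means was fitted to log2(signal + 16) with limma 3.58.1 (R 4.3.3), eBayes and an intensity trend, with Benjamini-Hochberg adjustment over 17694 probe sets. The pseudocount understates changes of dim genes. The fit was run on simulated arrays with independent noise, which do not hold the correlation between arrays of the same replicate number. A gene is represented by its brightest probe set. All members are named, the 5 of smallest p per comparison with their change and some of these with array values too. Called genes of the wider pathway and a few fixed by name are given beside them. The members and lists were chosen with earlier results of these data known. The number of arrays limits the precision.

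Alternatives covered the pseudocount, filter, normalization, array weights, intensity trend, the arrays compared, each array left out and a replicate block. By the series design, same-numbered duodenum and jejunum arrays within a genotype share their rats, and their deviations correlated by 0.186 to 0.277 in +/b and 0.158 to 0.382 in b/b rats. Between genotypes the correlations were 0.119 to 0.415 in jejunum and -0.059 to 0.165 in duodenum. Arrays that share neither rats nor segment also correlated. The values were 0.138 to 0.451 between +/b jejunum and b/b duodenum, and 0.028 to 0.257 between +/b duodenum and b/b jejunum.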

Additional observations from a re-analysis of the deposited data

How the results depend on the processing

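Of the list's counts and medians under the alternatives, 231 values kept their direction and side of the threshold or their size, and 7 moved. Of the values of named genes, 796 kept direction and call, 6 gained a call, 14 lost one and 19 changed sign. Most sign changes came from using the values as deposited, which leaves 2 +/b duodenum arrays unscaled: the member median was 1.57 for b/b against +/b in duodenum, 1.61 for jejunum against duodenum in +/b rats and -1.65 for the difference between segments, and 15 of 42 member probe sets (35.7%) were called for jejunum against duodenum in +/b rats, where 49% of all probe sets were. Under the same setting the duodenum genotype changes were 0.72 (Eci1), 0.73 (Acot2), 0.89 (Decr1) and 1.23 (Eci2), the +/b segment changes 0.85 (Acadm), 1.39 (Etfa), 1.43 (Acadl), 1.38 (Crat), 1.33 (Ppargc1a), 1.52 (Cpt1a) and 0.74 (Pparg), and the differences between segments -1.31 (Eci1), -1.32 (Decr1) and -1.29 (Acot2). Without the 2 unscaled arrays, the Acot2 difference between segments was -0.049 and the Echs1 change between segments in +/b rats -0.034. With 1 array left out, the +/b segment changes lay between -0.030 and 0.505 for Decr1 and between -0.173 and 0.461 for Echs1, each lowest without +/b duodenum replicate 3. In the same way the Eci2 change between genotypes in jejunum lay between -0.380 and 0.003, highest without +/b jejunum replicate 2, and the median difference between segments between -0.083 and 0.135.

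The replicate block gave 1 called member probe set, Acadm, for jejunum against duodenum in b/b rats, and array weights also gave 1, Cpt1a. The block raised the calls over all probe sets for jejunum against duodenum to 431 in b/b rats, against 135 without it, and to 86 in +/b rats, against 10. For the genotype comparisons the block was the replicate number within a segment, which joins arrays of different rats. That block gave 10 calls in duodenum (7 without it) and 6 in jejunum (6). For the difference between segments, the block of the group of rats gave 2 (0 without it, with 306 at an unadjusted p under 0.05). Neither block changed another call of a named gene. Pparg was not called in b/b rats without the intensity trend or with only the compared arrays. The cause was not tested for any of these. The 3 arrays per group limit every comparison.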

Other observations

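With the group of rats as a block, 3 further genes of the 63 tested in the wider pathway were called between segments in b/b rats. Under the same block 2.44% of all probe sets were called there. The 3 genes are named because of that result. Pecr, a peroxisomal enoyl-CoA reductase of chain elongation, averaged 965 ± 70.2 in b/b jejunum, against 1752 ± 101 in b/b duodenum (SD, n = 3 each), a log2 change of -0.85 ± 0.17 (limma adjusted p = 0.0251 with the block and 0.113 without). Its change in +/b rats was -0.64 ± 0.21 without the block (limma adjusted p = 0.706). Cd36, a fatty acid receptor of the brush border, averaged 10591 ± 5510 in b/b jejunum, against 5076 ± 5019 in b/b duodenum, with overlap (limma adjusted p = 0.0265 with the block and 0.438 without). Aldh3a2, a fatty aldehyde dehydrogenase, averaged 14524 ± 4775 in b/b jejunum, against 9150 ± 3544 in b/b duodenum, also with overlap (limma adjusted p = 0.0205 with the block and 0.516 without).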
